A study of Mus musculus with 8 samples.

Results

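The 10 genes described here make up a core of the antioxidant defence governed by NRF2: *Nfe2l2*, which encodes NRF2 itself, the detoxifying enzymes *Nqo1* and *Hmox1*, the glutathione genes *Gclc*, *Gclm*, *Gsr* and *Gpx4*, and the thioredoxin genes *Txnrd1*, *Prdx1* and *Srxn1*. They were taken by gene symbol from the 22520 genes and assembled transcripts of the deposited table. All 10 were found, and all 10 were among the 10666 genes that reached 1 FPKM (fragments per length of transcript, relative to the fragments mapped in that library) in at least 4 of the 8 libraries. The libraries came from CD8+ T cells of mouse spleen that received anti-CD3, anti-CD28 and IL-2 throughout 6 days of culture, a model of the persistent T cell receptor (TCR) stimulation that drives exhaustion. From day 3, 4 cultures received 40 µM DADA (diisopropylamine dichloroacetate, an inhibitor of pyruvate dehydrogenase kinase) and 4 received an equal volume of its solvent DMSO, and RNA was taken on day 6. The label field for genotype names one group control and the other model, but no genetic change is described. No strain, sex or age is given in the labels for the animals that supplied these spleens, nor whether each library came from a separate animal, so the p-values measure the spread between these libraries, which may be technical.

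NRF2 is a transcription factor that the adaptor KEAP1 holds in the cytoplasm and passes on for degradation. Oxidants and electrophiles modify KEAP1, and NRF2 then accumulates, pairs with a small MAF protein and binds antioxidant response elements, which BACH1 and BACH2 can occupy as repressors. A pair of thiol systems is among its targets: glutathione, made from cysteine and used by glutathione peroxidases and transferases, and thioredoxin, which reduces the peroxiredoxins. Both are recharged with electrons from NADPH. In T cells, mitochondrial activity and TCR signalling are sources of the peroxides that these systems remove, and the control of NRF2 lies largely in the stability of its protein, which RNA does not measure.

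Of the 10 genes, 6 were lower with DADA (*Nqo1*, *Srxn1*, *Txnrd1*, *Gclc*, *Prdx1* and *Gclm*), 2 were higher (*Hmox1* and *Gpx4*), and 2 did not pass the test (*Nfe2l2* and *Gsr*). The test was limma on log2(FPKM + 1), with a call where the Benjamini-Hochberg adjusted p-value, taken over the whole table, was under 0.05. The shares for all genes tested were 35.3% lower and 30.9% higher, or 66.2% in either direction, so a call by itself was common in these libraries. In 7 of the 10 genes the 4 values of each group did not overlap, as in 60.6% of all genes tested. The median log2 fold change of the 10 genes was -0.38, against -0.02 over all genes tested, and the median size of a change over all genes was 0.21. Summed over the 10 genes, the level was 426.7 to 441.4 FPKM in the DMSO libraries and 360.7 to 378.4 FPKM in the DADA libraries. No DADA library reached the sum of any DMSO library. Such a sum mostly reflects the most abundant genes, *Prdx1* and *Txnrd1* among them. The FPKM total of a library was also lower with DADA (438300 to 449500) than with DMSO (450500 to 456900). As a percentage of that total, the sum was 0.09446 to 0.09684 with DMSO and 0.08191 to 0.08559 with DADA.

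**Figure D1:**
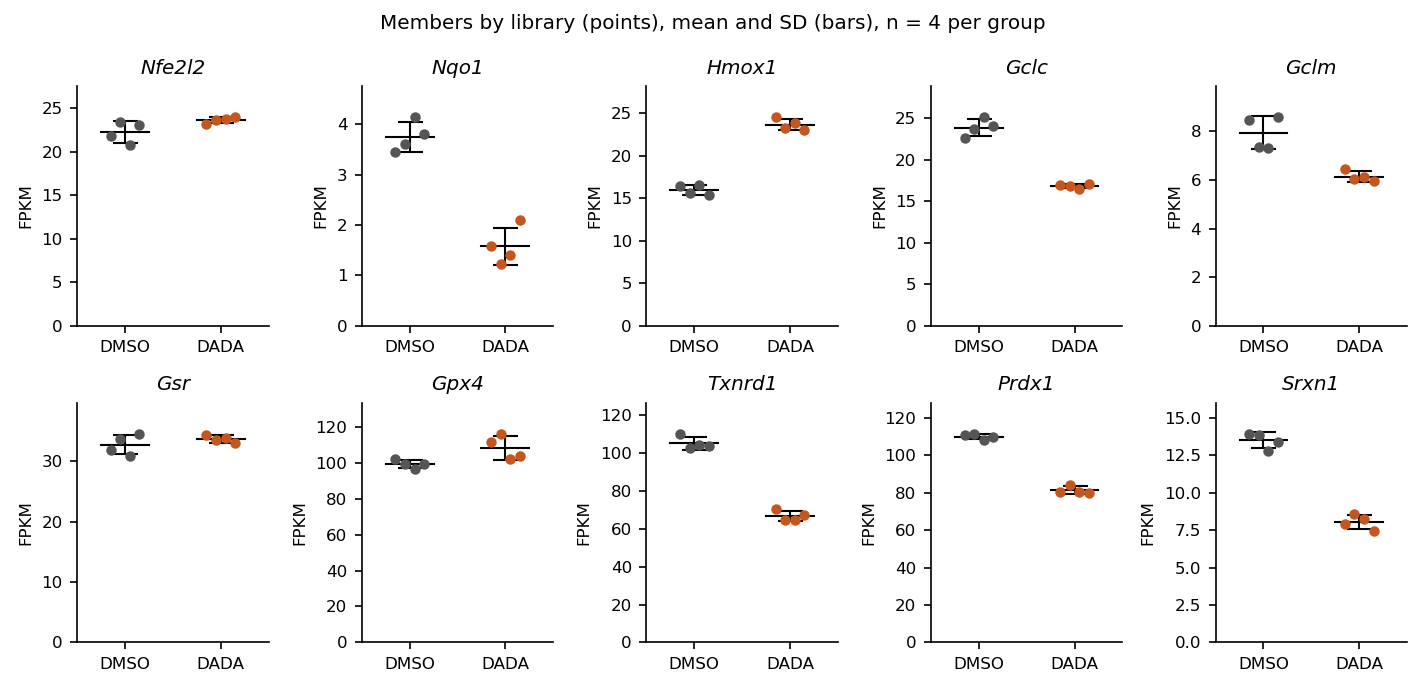
FPKM of the 10 genes in each library, with 1 panel per gene, a vertical axis from 0, points for the 4 DMSO (grey) and 4 DADA (orange) libraries, and black bars for the mean and SD. The DADA points of *Nqo1*, *Gclc*, *Gclm*, *Txnrd1*, *Prdx1* and *Srxn1* lay below all DMSO points, those of *Hmox1* lay above them, and those of *Nfe2l2*, *Gsr* and *Gpx4* overlapped with them.

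FPKM is scaled to transcript length, so levels can be set side by side between genes. The levels of *Prdx1* and *Gpx4* are less certain, since both have near copies, given below. *Prdx1*, *Txnrd1* and *Gpx4* were the most abundant with DMSO, at means of 110.1, 105.2 and 99.35 FPKM, and *Nqo1* was the least, at 3.752 FPKM. The ranges of *Prdx1* and *Txnrd1* overlapped with DMSO, as did those of *Gclc* and *Nfe2l2*, and all other neighbours in the order had separate ranges. With DADA, *Gpx4* came first at a mean of 108.3 FPKM, above *Prdx1* at 81.44 FPKM and *Txnrd1* at 66.85 FPKM, each with a separate range. *Hmox1* moved from the seventh to the fifth place, where its range overlapped with that of *Nfe2l2*. *Srxn1*, *Gclm* and *Nqo1* kept the last places in both groups.

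*Nfe2l2* (ENSMUSG00000015839) was at 21.9, 23.5, 20.8 and 23.1 FPKM with DMSO and at 23.2, 23.7, 23.7 and 24.0 FPKM with DADA. The groups overlapped, with means of 22.3 ± 1.23 and 23.65 ± 0.344 FPKM (SD, n = 4), and the log2 fold change of 0.08 (95% interval -0.004 to 0.17) did not pass the test (limma, adjusted p = 0.0842). It did pass when each library was rescaled to the same total (0.12, adjusted p = 0.029), after quantile normalization (0.10, adjusted p = 0.0483) and without DMSO replicate 2 (0.11, adjusted p = 0.0389).

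The list of NRF2 regulators and partners had 17 genes above the filter, of which 9 rose, 4 fell and 4 did not pass the test, with a median log2 fold change of 0.16. The shares were 52.9% higher and 23.5% lower, against 30.9% and 35.3% of all genes tested. The largest rises by the rule for named genes, which takes the largest changes at a mean of at least 5 FPKM, were in *Keap1* and *Ep300*. *Keap1*, the adaptor that holds NRF2 back, lay between 17.95 and 20.75 FPKM with DMSO and between 28.3 and 29.8 FPKM with DADA (log2 fold change 0.56, standard error 0.0419, limma, adjusted p = 1.24e-06). The ranges of the groups were well apart. *Ep300*, a histone acetyltransferase and coactivator, changed by 0.37 (adjusted p = 5.54e-06). The largest falls were in *Nfe2l1*, which encodes the related factor NRF1 and fell from a mean of 82.15 to 67.14 FPKM (log2 fold change -0.29, adjusted p = 3.86e-05), and in *Btrc*, which encodes a ubiquitin ligase adaptor for NRF2 and other proteins. *Btrc* overlapped between the groups (log2 fold change -0.23, adjusted p = 0.0348), and it no longer passed the test without DMSO replicate 1, 2 or 3 or DADA replicate 1 or 2 (-0.24 to -0.18, adjusted p = 0.0549 to 0.0939).

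*Bach1* was at 2.13, 2.55, 2.56 and 2.48 FPKM with DMSO and at 3.83, 3.25, 3.31 and 3.41 FPKM with DADA, and rose by 0.37 (limma, adjusted p = 4.76e-04). The repressor was at a low level in both groups, and each DADA value exceeded all DMSO values. Within a library, the ratio of *Bach1* to *Nfe2l2* was 0.0977 to 0.123 with DMSO and 0.137 to 0.165 with DADA, a mean log2 difference of 0.42 (two-sided exact permutation test, p = 0.0286, the smallest that 4 against 4 libraries allow, and 0.0429 adjusted over 3 ratios). Without DADA replicate 1, which had the highest ratio, the difference was 0.36 and did not pass (exact test, adjusted p = 0.0857). The following genes were chosen after their values were seen. *Bach2*, the related repressor best known in lymphocytes, rose from a mean of 8.8 to 11.33 FPKM (0.33, limma, adjusted p = 2.19e-05). All 3 small MAF genes rose: *Maff* from 1.474 to 4.735 FPKM (1.21, limma, adjusted p = 1.18e-07), *Mafg* from 16.03 to 18.41 FPKM (0.19, adjusted p = 0.00436) and *Mafk* from 10.98 to 12.39 FPKM (0.16, adjusted p = 0.0182). Of all genes tested, 30.9% were called higher. The changes of *Mafg* and *Mafk* were smaller than the median size of a change over all genes (0.21). *Mafk* did not pass without DMSO replicate 2 (0.14, limma, adjusted p = 0.0506) or DADA replicate 1 (0.13, adjusted p = 0.051). Small MAF proteins form pairs with NRF2 as well as with BACH1 and BACH2.

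**Figure D2:**
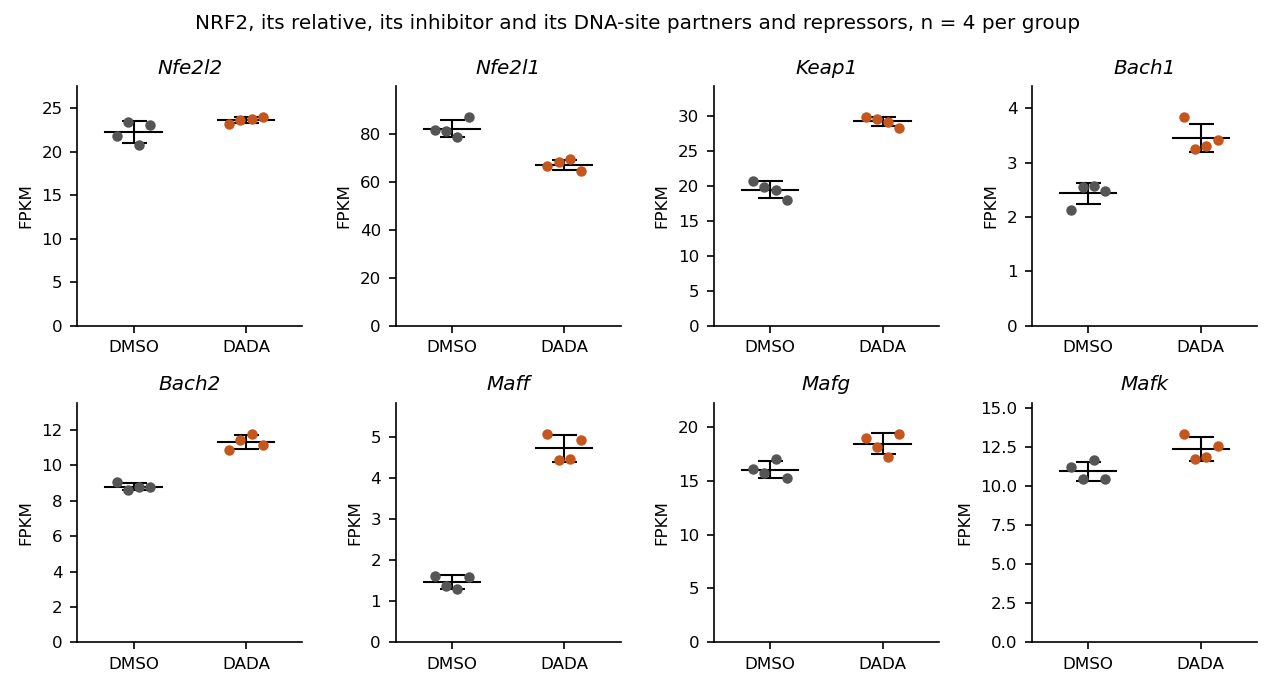
FPKM of *Nfe2l2*, *Nfe2l1*, *Keap1*, *Bach1*, *Bach2*, *Maff*, *Mafg* and *Mafk* in each library, drawn as points for DMSO (grey) and DADA (orange) on axes from 0, with bars for the mean and SD (n = 4). *Keap1*, *Bach1*, *Bach2*, *Maff* and, by a narrow margin, *Mafg* and *Mafk* were higher in every DADA library than in any DMSO library. *Nfe2l1* was lower in every DADA library, and the 2 groups of *Nfe2l2* overlapped.

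Promoter windows from RefSeq (GRCm38.p6, 250 bases before to 50 bases after each listed start) were searched on both strands for the antioxidant response element core TGACNNNGC, which NRF2 and small MAF proteins recognise, and for TGANTCA, a site of AP-1 that can also lie within MAF and BACH sites. Windows were available for 7 of the 10 genes, with 12 starts, and none for *Gsr*, *Hmox1* and *Gclc*. TGACNNNGC was found in 5 of the 7 genes, *Nfe2l2*, *Gclm*, *Prdx1*, *Txnrd1* and *Srxn1*, against 3781 of all 27025 genes with a window and 17.2% of those tested here. By windows, it was in 5 of 12, against 12.4% of all 32851. TGANTCA was found in *Prdx1* and *Srxn1*, against 8.97% of all genes with a window and 5.72% of those tested, and in 7.81% of all windows. Neither was found in the windows of *Nqo1* and *Gpx4*, and sites further from the start were not searched. The 1 match of TGACNNNGC in *Srxn1* lay downstream, 28 to 36 bases from the start, and is not shown. A match describes the sequence and does not show binding. Matches upstream of a start, all but 1 (TGANTCA in *Prdx1* at chr4:116685349-116685382), are given to place the sites that NRF2 or its repressors could contact next to the values of each gene, with the matched letters in capitals, 5′ to 3′.
*Nfe2l2*, TGACNNNGC, chr2:75704881-75704913, minus strand: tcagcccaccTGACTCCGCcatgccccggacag
*Gclm*, TGACNNNGC, chr3:122245409-122245445, minus strand: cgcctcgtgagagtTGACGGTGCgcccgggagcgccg
*Prdx1*, TGACNNNGC, chr4:116685452-116685488, minus strand: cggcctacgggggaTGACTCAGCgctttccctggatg
*Txnrd1*, TGACNNNGC, chr10:82859100-82859136, minus strand: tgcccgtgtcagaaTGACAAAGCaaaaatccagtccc
*Srxn1*, TGANTCA, chr2:152105408-152105442, plus strand: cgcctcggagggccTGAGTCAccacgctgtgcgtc
*Srxn1*, TGANTCA, chr2:152105465-152105499, plus strand: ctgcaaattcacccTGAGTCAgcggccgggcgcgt
In *Prdx1*, the shown match of TGACNNNGC also holds TGANTCA. Of the 5 genes with TGACNNNGC, 4 were called lower and *Nfe2l2* did not pass the test. Of the 2 without it in their windows, *Nqo1* was lower and *Gpx4* higher. Among all genes tested, 35.3% were lower, and the share among those with TGACNNNGC was not taken. Whether the motif goes with the falls was not tested, and *Gclc* and *Hmox1* had no window.

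The genes of glutathione synthesis were lower. *Gclc* (ENSMUSG00000032350) encodes the catalytic subunit of glutamate-cysteine ligase, the rate-limiting enzyme of glutathione synthesis. It was at 22.6, 23.7, 25.1 and 24.1 FPKM with DMSO and at 17.0, 16.9, 16.5 and 17.1 FPKM with DADA. All DADA values were below all DMSO values, and the mean fell by 29.4% (log2 fold change -0.48, standard error 0.035, limma, adjusted p = 1.09e-06). *Gclm* (ENSMUSG00000028124), the regulatory subunit that makes the ligase more efficient, was at 8.46, 7.37, 7.32 and 8.57 FPKM with DMSO and at 6.44, 6.03, 6.10 and 5.96 FPKM with DADA. It was lower in each DADA library as well, by 22.7% of the mean (log2 fold change -0.32, standard error 0.0572, adjusted p = 6.51e-04). The ratio of *Gclc* to *Gclm* was 3.03 ± 0.35 with DMSO and 2.75 ± 0.1 with DADA, and the mean log2 difference of -0.13 did not pass the test (two-sided exact permutation test, p = 0.257). The DMSO libraries had the wider spread of this ratio, from 2.67 to 3.43.

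*Gsr* (ENSMUSG00000031584), glutathione reductase, regenerates glutathione from its oxidised form with NADPH. It was at 31.9, 33.6, 30.9 and 34.5 FPKM with DMSO and at 34.4, 33.6, 33.8 and 32.9 FPKM with DADA. The groups overlapped, and the log2 fold change was 0.04 with a 95% interval from -0.041 to 0.121 (limma, adjusted p = 0.351). *Gpx4* (ENSMUSG00000075706), the selenoenzyme that reduces lipid peroxides in membranes and holds back ferroptosis, was at 102.0, 99.2, 96.7 and 99.6 FPKM with DMSO and at 111.6, 116.1, 101.9 and 103.7 FPKM with DADA. DADA replicate 3 lay just below the highest DMSO library, and the small rise (log2 fold change 0.12, standard error 0.0407, adjusted p = 0.0232) did not pass without DMSO replicate 3 (0.11, adjusted p = 0.0614), DADA replicate 1 (0.11, adjusted p = 0.0632) or DADA replicate 2 (0.09, adjusted p = 0.0528). *Gpx4* also has a processed copy, *Gpx4-ps2*, with 99.7% identity over 733 bases and no row in the table, so its value is uncertain if fragments were divided between them. Another sequence, *AC122253.3*, also without a row, matches *Gpx4* at 95.1% identity over 510 bases.

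Thioredoxin reductase, a peroxiredoxin and the enzyme that repairs peroxiredoxins were all lower. *Txnrd1* (ENSMUSG00000020250), the cytosolic selenoenzyme that recharges thioredoxin, was at 110.2, 102.5, 104.3 and 103.9 FPKM with DMSO and at 70.6, 64.7, 64.6 and 67.5 FPKM with DADA. No DADA library came near the DMSO range, and the mean fell by 36.4% (log2 fold change -0.65, standard error 0.0344, limma, adjusted p = 1.05e-07). *Prdx1* (ENSMUSG00000028691), an abundant peroxidase that uses thioredoxin, was at 110.7, 111.6, 108.1 and 109.9 FPKM with DMSO and at 80.7, 84.4, 80.7 and 80.0 FPKM with DADA. It varied little within a group and fell by 26.0% of the mean (log2 fold change -0.43, standard error 0.0234, adjusted p = 1.22e-07). A pair of processed copies without a row in the table, *Gm21399* and *Gm7204*, match it at 98.3% and 97.5% identity over 597 bases, which leaves the same uncertainty as for *Gpx4*. *Srxn1* (ENSMUSG00000032802), sulfiredoxin, restores peroxiredoxins whose active cysteine has been over-oxidised. It was at 13.9, 13.9, 12.8 and 13.4 FPKM with DMSO and at 7.88, 8.55, 8.21 and 7.43 FPKM with DADA, and the mean fell by 40.6% (log2 fold change -0.69, standard error 0.0474, adjusted p = 7.07e-07).

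*Nqo1* (ENSMUSG00000003849), a quinone reductase and a common readout of NRF2 activity, had the largest fall of the 10 genes and the lowest level. It was at 3.45, 3.61, 4.14 and 3.81 FPKM with DMSO and at 1.579, 1.233, 1.406 and 2.093 FPKM with DADA. The highest DADA value was below the lowest DMSO value, and the mean fell by 57.9% (log2 fold change -0.89, standard error 0.0972, limma, adjusted p = 2.08e-05). At this level an addition of 1 FPKM shrinks the change, and with 0.1 in its place the log2 fold change was -1.22. The estimated depth puts *Nqo1* at 51 to 59 fragments per kilobase of transcript with DMSO and 21 to 39 with DADA. Its coefficient of variation was 7.91% with DMSO, where *Gclm* had the largest at 8.57%, and 23.5% with DADA, the largest of the 10 genes in that group.

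*Hmox1* (ENSMUSG00000005413), the inducible heme oxygenase, is a target of NRF2 and is held down by BACH1. It was at 16.4, 15.6, 16.6 and 15.3 FPKM with DMSO and at 24.5, 23.2, 23.9 and 23.0 FPKM with DADA. It was the one gene of the 10 with every DADA library above every DMSO library, and its mean rose by 47.9% (log2 fold change 0.54, standard error 0.0352, limma, adjusted p = 4.75e-07). The constitutive *Hmox2* was at 33.5 FPKM on average with DMSO and at 33.21 FPKM with DADA (-0.01, adjusted p = 0.869), a difference whose sign changed with the scaling. The ratio of *Hmox1* to *Hmox2* was 0.447 to 0.51 with DMSO and 0.638 to 0.789 with DADA, a mean log2 difference of 0.58 (two-sided exact permutation test, p = 0.0286, and 0.0429 adjusted over 3 ratios). Without DADA replicate 1 it was 0.57 and did not pass once adjusted with the other ratios (exact test, adjusted p = 0.0857), while the 2 ranges stayed apart.

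**Figure D3:**
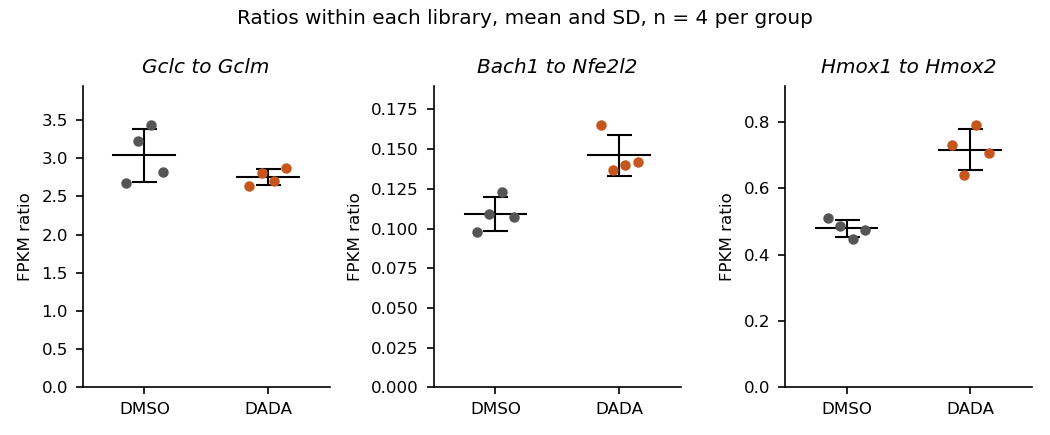
Ratios of FPKM within each library for *Gclc* to *Gclm*, *Bach1* to *Nfe2l2* and *Hmox1* to *Hmox2*, drawn as points for DMSO (grey) and DADA (orange) on axes from 0, with bars for the mean and SD (n = 4). The DADA points were above all DMSO points for *Bach1* to *Nfe2l2* and *Hmox1* to *Hmox2* and overlapped with them for *Gclc* to *Gclm*.

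Macrophages and cells that handle red cell heme express *Hmox1* strongly, and their markers were read beside it. Of 14 myeloid markers, 7 (among them *Csf1r*, *Adgre1* and *C1qa*) were listed at 0 in all libraries and 13 stayed below 1 FPKM. Only *Cd68* reached 1 FPKM, at 3.43 to 3.90 FPKM with DMSO and 5.09 to 5.55 FPKM with DADA, and the other 13 summed to 0.0421 to 0.0883 and 0.0529 to 0.206 FPKM. All 9 erythroid markers stayed below 1 FPKM. The sum of 7 CD8 T cell markers, *Cd8a*, *Cd8b1* and *Cd3e* among them, was 920 to 943 FPKM with DMSO and 1130 to 1160 FPKM with DADA. Of these 7, 6 rose and *Cd5* fell from 84.53 to 66.35 FPKM, and *Cd2* alone went from 170.3 to 287.2 FPKM. Of 4 CD4 T cell markers, 3, *Cd4* among them, stayed below 1 FPKM, and *Zbtb7b* was at 14.76 to 16.68 FPKM over all libraries. NK cell markers summed to 330 to 346 and 497 to 527 FPKM, nearly all of it *Nkg7*, which cytotoxic T cells also express. In bulk RNA, fewer cells of a type and less RNA per cell cannot be told apart, and this holds for each change given here.

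**Figure D4:**
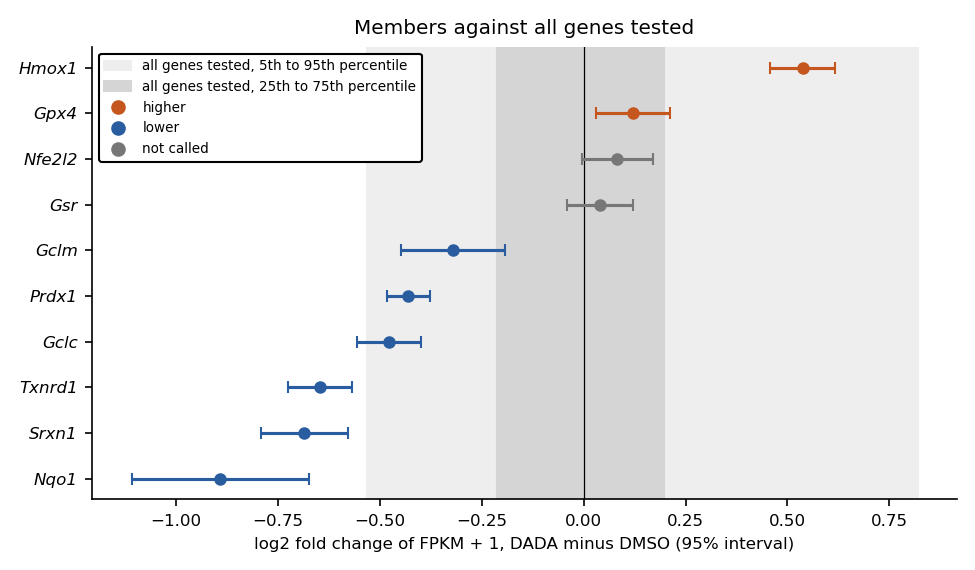
Log2 fold change of FPKM + 1 (DADA minus DMSO, horizontal axis) of the 10 genes, ordered by size, with 95% intervals and the middle 50% (dark band) and 90% (light band) of all genes tested. *Nqo1*, *Srxn1* and *Txnrd1* lay below the 5th percentile of all genes (-0.53), *Hmox1* lay below the 95th (0.82), and *Gpx4*, *Nfe2l2* and *Gsr* lay in the dark band (-0.21 to 0.2).

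Set against all genes, the members split by size. *Nqo1*, *Srxn1* and *Txnrd1* were below the 5th percentile of all log2 fold changes (-0.53), and *Gclc*, *Prdx1* and *Gclm* lay between it and the 25th percentile (-0.21). *Hmox1*, the largest rise of the 10, lay between the 75th (0.2) and the 95th percentile (0.82). As a description over the 8 libraries, the genes whose log2 values followed *Hmox1* most closely were *Tbxa2r* (Pearson r = 0.9976), *Hdac7* (0.9976) and *Cyp2s1* (0.9975), and 169 genes reached an r above 0.99. For *Nqo1* they were *Qtrt1* (0.9956), *Ptpmt1* (0.9927) and *Hnrnpu* (0.9913), and 4 genes reached 0.99. These points share the split between the 2 groups, which any gene with a clear difference also follows.

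Wider lists of the same pathways were counted to set the 10 genes in context, 181 genes in 10 lists of which 158 could be tested. Each count stands beside the shares of all genes tested, 35.3% lower and 30.9% higher. Among 22 other NRF2 targets, 11 rose and 7 fell, with a median log2 fold change of 0.08. The rises include *Gstm1* and *Me1*, which met the filter only through the DADA libraries. They also include *Osgin1* and *Trim16*, which were below 1 FPKM in part of the DMSO libraries. The named rises were *Ugdh*, which makes UDP-glucuronic acid for conjugation (0.59, limma, adjusted p = 2.04e-06), and *Ephx1*, an epoxide hydrolase (0.39, adjusted p = 5.35e-05). The named falls were *G6pdx*, the first enzyme of the pentose phosphate pathway, from 45.45 to 27.58 FPKM (-0.70, adjusted p = 3.36e-07), and *Phgdh*, which opens serine synthesis, from 447.9 to 293.0 FPKM (-0.61, adjusted p = 1.01e-07). Chosen after its values were seen, *Me1*, the cytosolic malic enzyme that yields NADPH, was below 0.17 FPKM in all DMSO libraries and between 1.59 and 1.86 FPKM with DADA, so that it met the filter only through the DADA libraries and its difference is given with no test, and *Slc7a11*, the cystine carrier that feeds glutathione synthesis, fell from 3.848 to 2.689 FPKM (-0.39, adjusted p = 3.46e-04).

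Of 29 other glutathione genes tested, 16 fell, 5 rose and 8 did not pass, with a median of -0.22. The shares were 55.2% lower and 17.2% higher, against 35.3% and 30.9% of all genes tested. The rises include *Gstm5*, which met the filter only through the DADA libraries. *Slc25a39*, the mitochondrial glutathione carrier, fell from 55.09 to 30.34 FPKM (-0.84, limma, adjusted p = 5.21e-08). *Glo1*, the glyoxalase that uses glutathione to clear methylglyoxal, fell by 0.80 (adjusted p = 0.0162), and its DADA values of 26.6, 40.3, 13.9 and 28.3 FPKM varied widely. Without DADA replicate 3, the lowest, its log2 fold change was -0.52 (limma, adjusted p = 0.00736). *Ggt7* (0.55, adjusted p = 2.6e-06), of the gamma-glutamyltransferase family, and the transferase *Gstt2* (0.41, adjusted p = 4.53e-04) were the named rises. Among 22 other genes of thioredoxins, peroxiredoxins and sulfur repair, 9 fell, 4 rose and 9 did not pass, with a median of -0.04. The share that fell, 40.9%, was near that of all genes tested (35.3%). The peroxiredoxins differed by member: the mitochondrial *Prdx3* fell from 97.55 to 59.16 FPKM (-0.71, adjusted p = 2.65e-08) and *Prdx6*, which uses glutathione, fell from 68.07 to 42.08 FPKM (-0.68, adjusted p = 1.53e-07), whereas *Prdx4* of the endoplasmic reticulum rose from 20.47 to 35.3 FPKM (0.76, adjusted p = 2.27e-06). With *Prdx1*, *Prdx2* (0.05, adjusted p = 0.208) and *Prdx5* (0.27, adjusted p = 2.83e-05), the last 2 chosen after their values were seen, 3 of 6 peroxiredoxins fell and 2 rose. *Prdx2* passed after scaling to a common total (0.08, adjusted p = 0.0354), quantile normalization (0.11, adjusted p = 0.0189) and without DADA replicate 3 (0.08, adjusted p = 0.0088). *Msrb1*, a methionine sulfoxide reductase, rose by 0.33 (adjusted p = 0.00132).

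**Figure D5:**
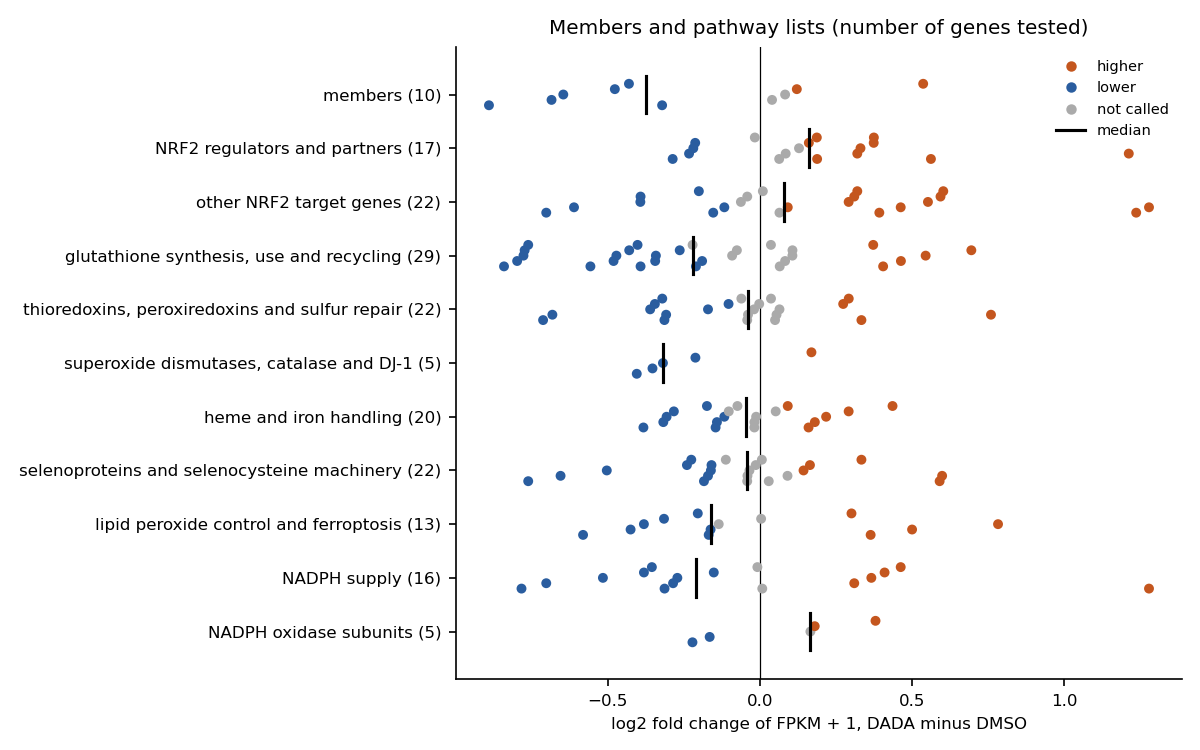
Log2 fold change of FPKM + 1 (DADA minus DMSO, horizontal axis) of each gene tested, in the 10 genes described here (top row) and 10 wider lists, with the number tested in brackets, points coloured by call and a black line at each median. Every list held genes called in both directions, and the medians lay between -0.38 for the 10 genes and 0.17 for the NADPH oxidase subunits.

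In the list of superoxide dismutases, catalase and DJ-1, 4 of 5 genes fell and 1 rose, with a median of -0.32. With 5 genes, this share says little beside the 35.3% of all genes tested that fell. *Sod2*, the mitochondrial superoxide dismutase, fell by 0.40 (limma, adjusted p = 9.04e-06) and *Cat*, catalase, by 0.35 (adjusted p = 2.41e-06). *Park7*, which encodes the redox chaperone DJ-1, rose by 0.17 (adjusted p = 1.23e-04). Of 22 other genes of selenoproteins and selenocysteine machinery, 9 fell, 5 rose and 8 did not pass. The falls include *Sephs1*, *Pstk* and, with overlapping groups, *Eefsec*, which belong to the machinery and were chosen after their values were seen. Also of the machinery, *Sephs2*, *Secisbp2*, *Sepsecs*, *Trnau1ap* and *Scly* did not pass. The share that fell, 40.9%, was near that of all genes tested (35.3%). *Gpx1*, the major cytosolic glutathione peroxidase, fell from 93.5 to 54.8 FPKM (-0.76, adjusted p = 3.51e-07) and the nuclear *Selenoh* fell by 0.66 (adjusted p = 2.7e-06), while *Selenos* (0.60, adjusted p = 2.49e-07) and *Selenok* (0.59, adjusted p = 7.9e-07), both of the endoplasmic reticulum, rose.

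Heme and iron genes were mixed, with 6 of 20 higher and 8 lower (median -0.05). These shares of 30.0% and 40.0% were near the 30.9% and 35.3% of all genes tested. *Tfrc*, the transferrin receptor, rose from 180.7 to 244.9 FPKM (0.44, limma, adjusted p = 2.05e-08), and *Pcbp1*, an iron chaperone, by 0.22 (adjusted p = 4.24e-04). *Blvra*, biliverdin reductase, which acts directly after heme oxygenase, fell from 28.49 to 21.61 FPKM (-0.38, adjusted p = 1.11e-05), the opposite direction to *Hmox1*, whereas the less abundant *Blvrb*, chosen after its values were seen, rose from 2.077 to 2.753 FPKM with overlapping groups (0.29, adjusted p = 0.0153, and 0.17, adjusted p = 0.127, after quantile normalization). Also in this list, the mitochondrial iron carrier *Slc25a37* fell by 0.32 (adjusted p = 2.27e-05). In lipid peroxide control and ferroptosis, 7 of 13 genes fell and 4 rose (median -0.16). The shares were 53.8% and 30.8%, against 35.3% and 30.9% of all genes tested. *Dhodh* (-0.58, adjusted p = 1.44e-05) and *Coq2* (-0.43, adjusted p = 3.07e-05), a mitochondrial oxidoreductase that reduces ubiquinone and an enzyme of ubiquinone synthesis, fell. *Sat1*, which acetylates polyamines, rose from 82.14 to 142.1 FPKM (0.78, adjusted p = 4.92e-08), and the acyl-CoA synthetase *Acsl3* by 0.36 (adjusted p = 3.11e-05).

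NADPH supply, on which both thiol systems draw, had 9 of 16 genes lower and 5 higher (median -0.21). The shares were 56.2% and 31.2%, against 35.3% and 30.9% of all genes tested. The higher genes include *Me1*, which met the filter only through the DADA libraries. *Mthfd1*, of cytosolic folate metabolism, fell from 61.32 to 35.18 FPKM (-0.78, limma, adjusted p = 4.32e-09), with *G6pdx* the next largest fall. By the rule for named genes, the mitochondrial enzymes *Me2* (0.41, adjusted p = 2.21e-06) and *Mthfd1l* (0.37, adjusted p = 5.07e-07) were the rises. *Pgd*, of the pentose phosphate pathway and chosen after its values were seen, rose from 56.24 to 69.96 FPKM (0.31, limma, adjusted p = 9.79e-06). A place on this list does not show that an enzyme makes NADPH. Of the NADPH oxidase subunits, which generate superoxide, 2 of 5 rose and 2 fell: *Ncf4* (0.38, adjusted p = 2.07e-06) and *Cyba* (0.18, adjusted p = 0.0129) against *Ncf1* (-0.22, adjusted p = 2.77e-05) and *Rac2* (-0.17, adjusted p = 1.02e-04). The catalytic subunit gene *Cybb*, chosen after its values were seen, was at 0.0455 FPKM or less in every library and was not tested. *Nox4*, *Duox1* and *Duox2*, also not tested, were at 0.0265 FPKM or less.

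The files hold no counts, and the depth estimated from the steps between low values was 13750000 to 16260000 fragments per DMSO library and 15230000 to 18820000 per DADA library. Pearson correlations across genes were 0.9928 to 0.9949 within groups and 0.9584 to 0.9613 between groups, and no library stood apart from its group in them.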

How the data were processed

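In all, 8 bulk RNA-seq libraries of splenic mouse CD8+ T cells were analysed, 4 with DMSO and 4 with DADA, grouped by title. The authors deposited FPKM values for each gene and library. Per the labels, the library kit was a Hieff NGS Ultima Dual-mode mRNA kit, whereas the methods name a Multi-Stranded mRNA-Seq kit, and reads were paired at 150 bases. The submitters' processing notes list CASAVA 1.8.2, FastQC 0.11.9, HISAT2 2.0.5, StringTie 1.3.3, Picard 1.41 and SAMtools 0.1.18, with the builds GRCm39 and GRCh38 and no role for either. Of the 22520 rows, 404 are assembled transcripts. How fragments shared between copies were counted is not given in the sources used here.

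Values were analysed as log2(FPKM + 1) for genes at 1 FPKM or more in at least 4 of 8 libraries (10666 genes), with limma 3.58.1 (R 4.3.3), 1 term for DADA, eBayes with a trend and Benjamini-Hochberg adjustment, called under 0.05. Fold changes are on this scale, which understates low genes. The DADA against DMSO fit, tested on simulated data over 10666 genes, recovered 168 of 200 changed genes, with 6 false among 174 calls. That simulation drew its spread from the DMSO libraries and changed only those 200 genes, whereas 66.2% of genes were called here. Its rates therefore check that the fit runs and do not carry over to these data. Within-library ratios were tested with two-sided exact permutation tests over 70 assignments. Depth was estimated from low values, of which 37.97% to 47.01% lay near whole fragments, too few to recover counts, so no count test was run. Near copies were found by blastn against GENCODE M21, and promoter windows came from RefSeq (GRCm38.p6). Gene coordinates of the files' build were not used here.

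The 10 genes, the lists and the tests were chosen with earlier results of these data known. Genes were named by rule: the 10 genes, the 2 largest rises and falls among called genes of each list at a mean of at least 5 FPKM, both genes of each ratio, and the 3 genes most like *Hmox1* and *Nqo1* by Pearson r. Alternatives were another pseudocount (0.1), no filter, a mean of at least 5 FPKM, median-ratio or quantile scaling, scaling to a common total (TPM), eBayes with no trend, the replicate block, no assembled transcripts, and each library left out.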

Additional observations from a re-analysis of the deposited data

Results flagged for a closer look

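Single libraries were checked for standing apart from the other 3 of their group, by the gap to the nearest value divided by the group's range, against Dixon's critical value for groups of 4. Chance gives about 1 in 20 groups, and 10 of 120 groups passed where 6 would be expected. Among the 10 genes, it was met by *Prdx1* in DADA replicate 2 (84.4 FPKM against 80.0 to 80.7 FPKM, ratio 0.835), which was still far below the DMSO libraries. *Hmox2* in DMSO replicate 3 was at 37.2 FPKM against 32.2 to 32.4 FPKM (0.952). *Sod2* in DADA replicate 4 was at 10.2 FPKM against 10.8 to 10.9 FPKM (0.846), and *Coq2* in DMSO replicate 2 at 41.7 FPKM against 36.2 to 36.7 FPKM (0.912). DMSO replicate 4 stood apart for *Cat* (0.836), *Tfrc* (0.932), *Mthfd1* (0.929), *Rac2* (0.892) and *Cd8b1* (0.838), by a few FPKM in each. *Mthfd1* in DADA replicate 4 was at 36.0 FPKM against 34.9 FPKM in the others (0.982).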

How the results depend on the processing

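Of 169 values of the 10 genes under the alternatives, 163 kept their direction and their side of the threshold. The exceptions were *Nfe2l2*, which passed under 3 of them, and *Gpx4*, which did not pass without DMSO replicate 3, DADA replicate 1 or DADA replicate 2. The number of members called higher was therefore 1 to 3 when single libraries were left out, and 1 in each of those 3 cases. *Nqo1* gave no value at a mean of at least 5 FPKM, since its level is lower. Of 798 values of 46 other named genes, 787 were the same. *Btrc* did not pass in 7, including no filter (-0.23, adjusted p = 0.0671) and scaling to a common total (-0.22, adjusted p = 0.0609). *Hmox2* changed sign in 4: 0.02 with scaling to a common total, 0.01 after quantile normalization, 0.04 without DMSO replicate 3 and 0.03 without DADA replicate 3, and in none did it pass. Over the single libraries left out it ranged from -0.06 to 0.04. List counts were within 1.5 times of those given in 337 of 340 cases, and at a mean of at least 5 FPKM the number higher was 5 for other NRF2 targets, 2 for glutathione and 3 for NADPH supply, since fewer genes were tested. Without DADA replicate 1, the ratios of *Bach1* to *Nfe2l2* and *Hmox1* to *Hmox2* were 0.36 and 0.57 (exact test, adjusted p = 0.0857), the second because the adjustment runs over the ratios together, and over all libraries left out they ranged from 0.36 to 0.48 and from 0.53 to 0.63. Samples with the same replicate number deviated together with r of -0.12 to 0.1, so the numbers were not taken to pair samples. With the replicate block, 2 members were higher and 6 lower, and the 2 ratios were 0.42 and 0.58. Neither passed (exact sign-flip test, p = 0.125 for each before adjustment, the smallest p that 4 pairs allow).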
